A study of Mus musculus with 4 samples.

Results

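The 10 genes described here encode the main proteins of the basement membrane: the laminin chains Lama1, Lama5, Lamb1 and Lamc1, the collagen IV chains Col4a1 and Col4a2, the nidogens Nid1 and Nid2, the matrix protein gene Sparc and Hspg2, the gene of perlecan. They were chosen by name, with no measured value in the rule, and all 10 were found, 1 row each, among 22739 gene names. RNA was sequenced from mouse embryonic stem (ES) cells of the 129SV strain, the line CCE, as 2 libraries of cells with a short hairpin RNA against Tex10 (shTex10) and 2 of cells with a hairpin against luciferase (shLuci), the control. Cells of both groups grew on gelatin in serum medium with leukemia inhibitory factor. Neither the time after knockdown nor the number of hairpins is stated in the sources used here. The comparison asks which of the basement membrane transcripts differed when Tex10 was depleted.

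A basement membrane is a thin sheet of matrix on which epithelial cells rest. Laminins are trimers of an alpha, a beta and a gamma chain that bind to cell surface receptors and polymerize first. Collagen IV forms the second network, nidogens link both, and perlecan adds heparan sulfate chains. In the early mouse embryo a basement membrane separates the epiblast from the primitive endoderm, and parietal endoderm secretes much of Reichert's membrane. Cultured ES cells are known to transcribe many of these genes.

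The deposited values are FPKM, fragments per kilobase of transcript, scaled to the mapped total of each library. They are per length, so levels can be compared between genes. The files give no read totals, so the depth of each library is unknown, and rows without a gene name took between 56.3% and 71.6% of the summed FPKM. Tex10 itself stood at 77.3 and 82.1 FPKM in shLuci and at 11.6 and 13.4 FPKM in shTex10, so 15.7% of its mean level remained. ES cell markers were abundant in all 4 libraries, with Pou5f1 (Oct4) between 549 and 938 FPKM and Nanog between 165 and 278 FPKM. Each change below is the difference, shTex10 less shLuci, of log2(FPKM + 1), from limma fitted to the 11883 genes with a mean of at least 1 FPKM, with Benjamini-Hochberg adjustment over all of them and a threshold of 0.05. The median change of all these genes was -0.14 as deposited and 0.06 after each library was brought to an equal sum of its named genes. The share of calls that were higher moved from 38.3% as deposited to 62.9% with that rescaling. With the same sum over every row it was 73.4%, but of only 892 calls. The median change there was -0.13, near that as deposited. In bulk RNA, fewer cells that express a gene and less RNA per cell cannot be told apart. The series design speaks of biological replicates and gives no more detail, so a p-value here reflects only the scatter of these libraries, and the smallest p of an exact permutation test is 0.33.

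The basement membrane genes did not move together. Lama1 fell most, Lamc1 and Nid2 fell less, and Lama5 and Sparc each about doubled in level, at 2.01-fold and 1.91-fold. The other 5 genes did not pass the test. Of the 10, 3 fell, against 31.8% of all tested genes, and 2 rose, against 19.8%; these shares are close to the background (51.6% called in either direction). The median change of the 10 genes was 0.17, beside -0.14 for all tested genes, and the median size of the change was 0.33 beside 0.35. Both shTex10 libraries lay outside the range of shLuci for 7 genes (76.4% of all tested genes), above it for Lama5, Lamb1 and Sparc (28.3%) and below it for Lama1, Lamc1, Nid1 and Nid2 (48.1%).

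How the libraries were scaled decided some of these calls. With the same sum over named genes, Lama5, Lamb1 and Sparc were called higher and Lama1 alone lower, where 43.3% of all genes were called. With the same sum over every row, Lama1 alone was called, and 7.51% of all genes. Under median scaling 48.5% and under quantile normalization 44.7% of all genes were called. With the replicate number as a block, 9 of the 10 genes and 75.1% of all genes were called. Summed over the 10 genes, the share of named FPKM was 0.0815% and 0.0719% in shLuci and 0.116% and 0.103% in shTex10. This sum leans on Sparc, whose mean went from 120 FPKM in shLuci to 228 FPKM in shTex10, the largest difference in FPKM of the 10. The share is thus no measure of the 10 genes rising together, and it was not computed without Sparc. The named sum itself was 613642 and 632067 FPKM in shLuci and lower in shTex10, at 525878 and 537692 FPKM.

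**Figure D1:**
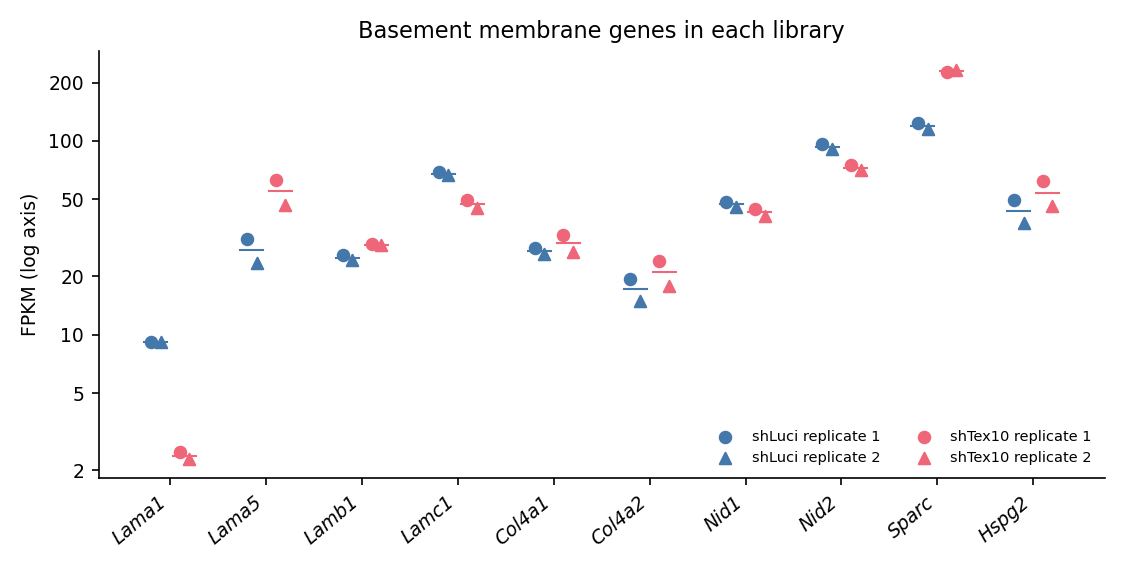
FPKM of each of the 10 genes on a log axis, with 1 point per library (circle for replicate 1, triangle for replicate 2) and a short line at each group mean. Lama1 drops from about 9 FPKM in both shLuci libraries to 2.47 and 2.29 FPKM in shTex10, while Lama5 and Sparc lie higher in both shTex10 libraries.

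The alpha chains carry the sites by which laminins bind cell receptors, and they changed in opposite directions. Lama1, which encodes the alpha chain of the embryonic laminin of Reichert's membrane (XLOC_011841, mm9 chromosome 17, 68046601 to 68171985), measured 9.17 and 9.22 FPKM in shLuci and 2.47 and 2.29 FPKM in shTex10. Both shTex10 libraries lay far below both shLuci libraries. The means were 9.19 ± 0.0320 and 2.38 ± 0.129 FPKM (SD, n = 2 each), a level 3.86-fold lower, with a log2 change of -1.59 (SE 0.09, limma, Benjamini-Hochberg adjusted p = 0.000225). Lama1 was the lowest of the 10 genes in every library, and its transcript is long (9526 bases in the longest GENCODE M21 model), so that it collects more fragments at a given FPKM than a short one.

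Lama5 encodes the alpha chain of the laminin most widespread in adult epithelia (XLOC_016431, mm9 chromosome 2, 179911071 to 179960564). Its level was 31.0 and 23.5 FPKM in shLuci and 63.1 and 46.8 FPKM in shTex10. The groups did not overlap, although the libraries within each group differed by 1.32-fold and 1.35-fold. The log2 change was 0.98 (SE 0.19, limma, Benjamini-Hochberg adjusted p = 0.00837), from 27.3 ± 5.33 to 54.9 ± 11.6 FPKM (SD, n = 2 each). The promoter of Lama5 is shown because it is of the CpG-rich kind, in contrast to that of Sparc, the other gene that rose. The RefSeq span of Lama5 ends at position 180225904, 45 bases upstream of the start site of its promoter window at 180225859. The 205 bases of the window that lie outside this span (GRCm38.p6, chr2:180225905-180226109, minus strand, read 5′ to 3′) hold 13 CpG, and the capitals mark the 3 copies of the GC box GGGCGG on either strand.
Lama5: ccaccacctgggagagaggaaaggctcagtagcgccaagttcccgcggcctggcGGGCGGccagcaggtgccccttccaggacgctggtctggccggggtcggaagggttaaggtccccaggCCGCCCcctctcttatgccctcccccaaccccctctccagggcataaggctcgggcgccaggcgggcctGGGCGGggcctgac

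The balance of both alpha chains can be read within each library, where scaling has no part. Lama1 made up 22.8% and 28.2% of the summed FPKM of Lama1 and Lama5 in shLuci, and 3.77% and 4.66% in shTex10. The shares fell on separate sides, at 25.5% ± 3.79 and 4.22% ± 0.635 (SD, n = 2 each; exact two-sided permutation test, p = 0.33, the smallest that 2 against 2 libraries allow).

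Lamb1 and Lamc1 encode the beta and gamma chains that join with either of these alpha chains, and they differed from each other. Lamc1 (XLOC_001102, mm9 chromosome 1, 155065913 to 155179916) measured 68.8 and 66.6 FPKM in shLuci and 49.3 and 45.0 FPKM in shTex10, with no overlap. It fell by 0.51 on the log2 scale (SE 0.09, limma, Benjamini-Hochberg adjusted p = 0.00645). The call was lost after rescaling to the same sum over named genes, where the change was -0.29 (limma, Benjamini-Hochberg adjusted p = 0.0587). Lamb1 (XLOC_005451, mm9 chromosome 12, 31950158 to 32014504) measured 25.6 and 24.3 FPKM in shLuci and 29.4 and 28.9 FPKM in shTex10. All its shTex10 values lay above its shLuci values, by little, and it missed the threshold with a log2 change of 0.22 (SE 0.09, limma, Benjamini-Hochberg adjusted p = 0.0839). Lamb1 passed after the rescaling to the named sum, with a change of 0.44 (limma, Benjamini-Hochberg adjusted p = 0.0135), after median scaling (adjusted p = 0.0403) and after quantile normalization (adjusted p = 0.0209).

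In each library Lamc1 was more abundant than Lamb1, less so in shTex10. Lamb1 made up 27.1% and 26.7% of the FPKM of this pair in shLuci and 37.3% and 39.1% in shTex10 (exact two-sided permutation test, p = 0.33, the smallest possible). The ratio of Lama5 to Lamb1 was 1.21 and 0.967 in shLuci and 2.15 and 1.62 in shTex10, again without overlap. Both of these comparisons were chosen after the values were seen.

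The rest of the laminin family showed where transcripts of other trimers stood. Lama3 and Lamb3, an alpha and a beta chain of the laminin that anchors stratified epithelia, both rose. Lamb3 measured 0.455 and 0.396 FPKM in shLuci and 7.32 and 6.10 FPKM in shTex10, a level 15.8-fold higher (log2 change 2.43, SE 0.11, limma, Benjamini-Hochberg adjusted p = 0.000172). Lama3 went from 0.956 and 1.00 FPKM to 2.29 and 2.34 FPKM, with a log2 change of 0.74 (SE 0.09). The groups did not overlap for either gene, but both genes reached the filter through shTex10 alone, which helps fix their calls. The fold of Lamb3 is a ratio of mean FPKM. Its log2 change is smaller than that fold because 1 was added to low shLuci values, and it ran from 2.30 to 3.69 over the alternatives tried. Lamb3 took 1.41% and 1.36% of all beta chain FPKM in shLuci and 17.6% and 15.6% in shTex10. Lama2 and Lama4 stayed under 0.35 FPKM and Lamc3 under 0.18 FPKM in every library.

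**Figure D2:**
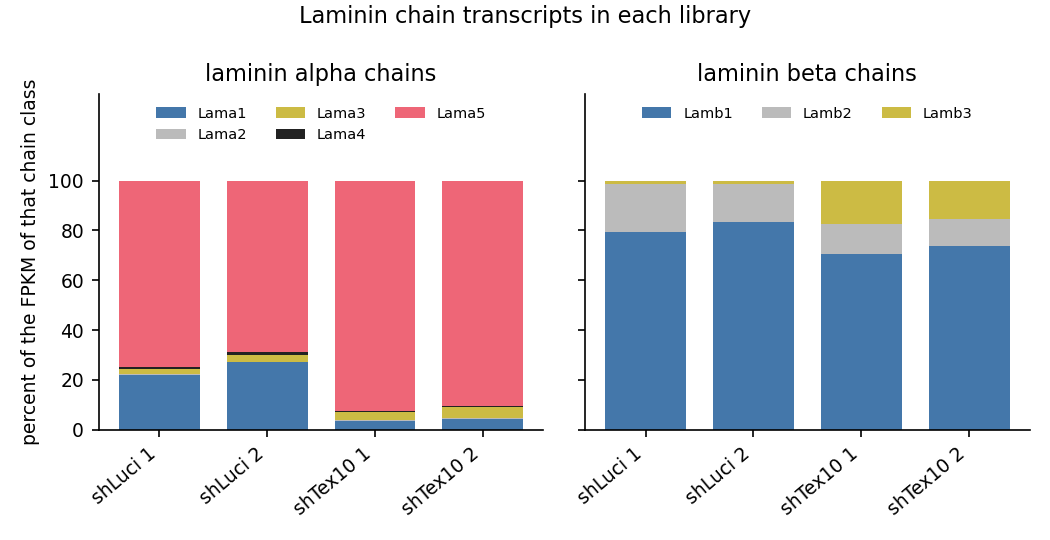
Stacked bars give each gene's percent of the summed FPKM of the laminin alpha or beta chains, with 1 bar per library. Lama1 shrinks from 22.1% and 27.0% of alpha chain FPKM in shLuci to 3.63% and 4.43% in shTex10, and Lamb3 grows from 1.41% and 1.36% to 17.6% and 15.6% of beta chain FPKM.

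Neither collagen IV gene passed the test, although Col4a2 did with the replicate number as a block. Col4a1 and Col4a2 encode the chains of the most widespread collagen IV trimer and lie head to head. In the deposited mm9 loci Col4a1 (XLOC_026700, chromosome 8, 11198422 to 11312826) ends 2 positions before Col4a2 (XLOC_026066, 11312828 to 11449287) begins. The bases around their start sites are shown because the starts overlap head to head. In the RefSeq promoter table the Col4a2 start lies at position 11312805 of chromosome 8 and that of Col4a1 at 11312826 (GRCm38.p6). Col4a2 is read on the plus strand and Col4a1 on the minus strand, so the 22 bases from one start to the other, marked by capitals within chr8:11312801-11312830 (plus strand), lie at the beginning of both.
Col4a1-Col4a2: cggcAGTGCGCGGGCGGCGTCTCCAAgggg

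Col4a1 measured 28.1 and 26.0 FPKM in shLuci and 32.8 and 26.6 FPKM in shTex10. Col4a2 measured 19.4 and 14.9 FPKM in shLuci and 24.1 and 17.9 FPKM in shTex10. In both genes the lower shTex10 library lay within the range of the shLuci libraries. The log2 change was 0.12 for Col4a1 (95% interval -0.18 to 0.43, limma, Benjamini-Hochberg adjusted p = 0.436) and 0.27 for Col4a2 (95% interval -0.18 to 0.72, adjusted p = 0.253). With shLuci replicate 1 left out, the log2 change of Col4a2 was 0.45, and with shTex10 replicate 2 left out 0.48. It was 0.096 without shLuci replicate 2 and 0.068 without shTex10 replicate 1, so its size depends on single libraries. With the replicate number as a block its adjusted p was 0.00215 (limma, Benjamini-Hochberg). Without shTex10 replicate 1 the change of Col4a1 was -0.022.

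The 2 collagen genes kept a similar ratio. Col4a1 took 59.2% and 63.6% of the FPKM of the pair in shLuci and 57.6% and 59.8% in shTex10, and these ranges overlap (exact two-sided permutation test, p = 0.67). The difference of the mean shares was -2.65 percentage points. Other collagen IV chains were scarce: Col4a5, found in kidney and smooth muscle basement membranes, measured between 0.919 and 1.15 FPKM, and Col4a3, Col4a4 and Col4a6 stayed under 0.11 FPKM.

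Nidogens bind laminin gamma chains on one side and collagen IV on the other. Nid2 (XLOC_008046, mm9 chromosome 14, 20570478 to 20643045) was about 2 times as abundant as Nid1 in shLuci, with 95.9 and 91.1 FPKM in shLuci and 75.0 and 70.6 FPKM in shTex10. It fell by 0.36 on the log2 scale (SE 0.09, limma, Benjamini-Hochberg adjusted p = 0.0190), and the groups did not overlap. Leaving out 1 library kept the change between -0.40 and -0.31. The call was fragile to scaling: in limma the Benjamini-Hochberg adjusted p was 0.373 with quantile normalization and 0.295 with the named sum. The files give the same locus to 2700060E02Rik, which fell as well, from 142 and 166 FPKM to 102 and 120 FPKM. How strand was treated is not given in the sources used here, so reads of both cannot be told apart here.

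Nid1 (XLOC_006685, mm9 chromosome 13, 13529868 to 13604542) measured 48.5 and 45.7 FPKM in shLuci and 44.7 and 40.8 FPKM in shTex10. The libraries of both groups lay close together, and the log2 change was -0.14 (95% interval -0.37 to 0.10, limma, Benjamini-Hochberg adjusted p = 0.263), equal to the median of all genes. Its sign flipped, to 0.087 under quantile normalization and to 0.085 after the rescaling to the named sum. Nid1 made up 33.6% and 33.4% of the FPKM of both nidogens in shLuci and 37.3% and 36.6% in shTex10, a pair chosen after the values were seen (exact two-sided permutation test, p = 0.33, the smallest possible).

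Sparc, also called osteonectin or BM-40, encodes a calcium-binding matrix protein that binds collagen IV. It was the most abundant of the 10 genes in every library. Sparc (XLOC_004351, mm9 chromosome 11, 55208001 to 55236539) measured 124 and 116 FPKM in shLuci and 225 and 232 FPKM in shTex10. The means were 120 ± 5.78 and 228 ± 4.38 FPKM (SD, n = 2 each), with a log2 change of 0.93 (SE 0.09, limma, Benjamini-Hochberg adjusted p = 0.000880). The 250 bases before the Sparc start in RefSeq (GRCm38.p6, chr11:55420081-55420330, minus strand, read 5′ to 3′) are shown for contrast with Lama5. They hold 4 CpG and 0 copies of the GC box, so no base is in capitals.
Sparc: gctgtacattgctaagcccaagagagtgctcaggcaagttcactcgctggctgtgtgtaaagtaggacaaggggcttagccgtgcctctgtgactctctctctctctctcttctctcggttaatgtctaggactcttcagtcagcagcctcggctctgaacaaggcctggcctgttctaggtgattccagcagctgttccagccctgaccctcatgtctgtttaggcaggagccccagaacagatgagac

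RefSeq promoter windows, running from 250 bases before to 50 bases after a start, were matched for 7 of the 10 genes: Lama5, Lamb1, Col4a1, Col4a2, Nid1, Sparc and Hspg2. The window of Sparc had 55.3% GC, and those of the other 6 genes had between 63.7% and 74.0%, beside a median of 52.7% over 32851 windows. The GC box GGGCGG, the motif bound by SP1, occurred on either strand in all of these windows except that of Sparc, and in 35.7% of all windows. CCAAT was found in those of Lamb1, Col4a1, Col4a2 and Nid1 and in 37.4% of all windows, with the Col4a1 and Col4a2 windows sharing 78 bases. TATAAA was in none of the 7 and in 13.6% of all windows. Of the genes that rose, Lama5 had 24 CpG in the whole window and Sparc 4, beside a median of 7 over all windows. The other 5 genes had between 18 and 37, so that Sparc had the fewest of the 7 and Lama5 lay among the others.

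Perlecan, the product of Hspg2, is the large heparan sulfate proteoglycan of basement membranes. Hspg2 (XLOC_018905, mm9 chromosome 4, 137024704 to 137131095, a locus the files also give to the scarce transcript Ldlrad2) measured 49.4 and 37.7 FPKM in shLuci and 62.0 and 45.9 FPKM in shTex10. The groups overlapped, and the log2 change was 0.30 (95% interval -0.17 to 0.77, limma, Benjamini-Hochberg adjusted p = 0.231). With shLuci replicate 1 left out, the log2 change of Hspg2 was 0.49, and with shTex10 replicate 2 left out 0.51. It was 0.11 without shLuci replicate 2 and 0.085 without shTex10 replicate 1. Hspg2 passed with the replicate number as a block (limma, Benjamini-Hochberg adjusted p = 0.000817).

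**Figure D3:**
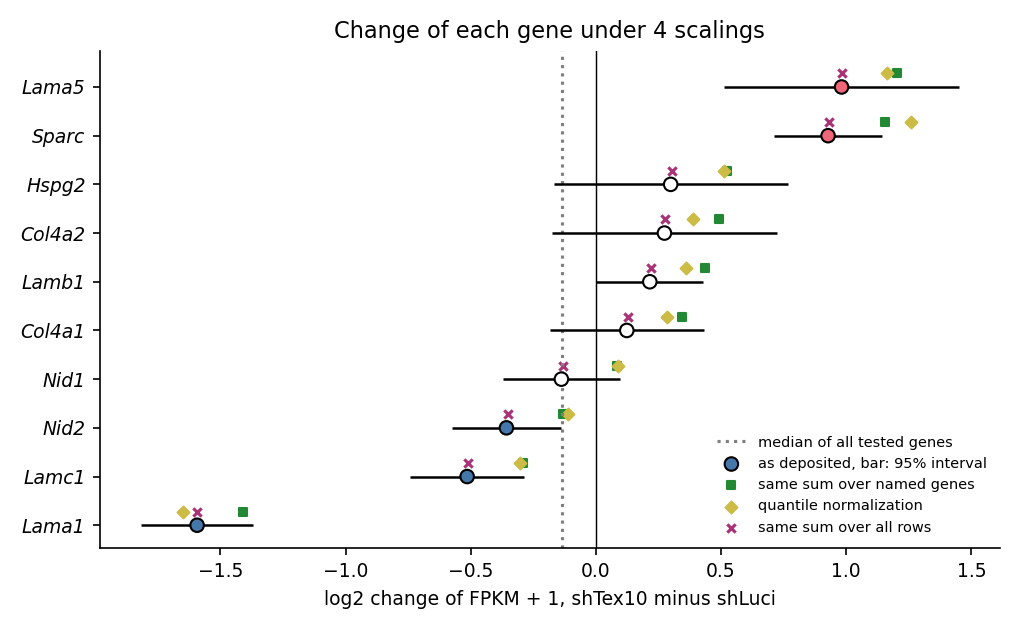
Log2 change of FPKM + 1 for each gene, shTex10 minus shLuci, with its 95% interval as a bar; red and blue circles passed the test as higher and lower, and open circles did not. Small markers give the change under 3 other scalings, and the dotted line is the median of all tested genes (-0.14); Nid1 is the gene whose sign differs between scalings.

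The precision differed between the genes in a way that followed the replicate numbers. Lama5, Col4a2 and Hspg2 had values 1.30-fold to 1.35-fold higher in the library numbered 1 than in that numbered 2, within shLuci and within shTex10 alike, and their SE lay between 0.18 and 0.19. For the other 7 genes that ratio was between 0.973 and 1.23, and the SE between 0.09 and 0.12. The longest GENCODE coding transcripts of Lama5, Col4a2 and Hspg2 have a GC content of 59.9% to 60.9%, above the 50.4% to 57.7% of the other 7. The part of GC content in the results was not tested.

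By level, the order in shLuci was Sparc, Nid2, Lamc1, Nid1, Hspg2, Lama5, Col4a1, Lamb1, Col4a2 and Lama1. Nid1 and Hspg2 overlapped between libraries, as did Lama5, Col4a1 and Lamb1, so their order is not fixed. Lama5 ranked 6 and 8 in the shLuci libraries and 3 in both shTex10 libraries, next to Hspg2, and Lamc1 ranked 3 in both shLuci and 5 in both shTex10 libraries. Lama5, Hspg2 and Lamc1 overlapped there, and so did Col4a1 and Lamb1. Lama1 remained the lowest and Sparc the highest in all 4 libraries.

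Beyond the 10 genes, a list of 26 other basement membrane components was read in the same fit. Of these, 13 reached the filter, 7 rose, 2 fell and 4 did not pass, with a median log2 change of 0.44 beside -0.14 for all genes. A gene could reach the filter through 1 group alone, as Lama3, Lamb3 and Frem2 did, so that the filter helps fix the count. With a filter of at least 5 FPKM it was 3 risen and 2 fallen at a median of 0.097. Besides the laminin chains, Npnt (nephronectin, a ligand of integrins) rose from 3.20 and 2.94 FPKM to 5.87 and 5.44 FPKM. Tinagl1, a matrix glycoprotein gene, rose from 6.83 and 5.38 FPKM to 14.9 and 11.3 FPKM, and Col18a1, the source of endostatin, from 81.7 and 68.7 FPKM to 124 and 102 FPKM. Fbln1 (fibulin-1) and Smoc1 were the 2 that fell. With the same sum over every row only Lamb3 of the list was called.

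Among 16 receptors of basement membrane proteins, 14 were tested, of which 5 rose, 1 fell and 8 did not pass, at a median log2 change of 0.09. Sdc4, a heparan sulfate syndecan of focal adhesions, rose from 31.9 and 29.6 FPKM to 134 and 131 FPKM (log2 change 2.07, SE 0.09). Itgb4, the integrin beta chain of hemidesmosomes, rose from 1.41 and 1.18 FPKM to 7.72 and 5.98 FPKM. Ddr1, a receptor kinase for collagens, rose from 13.9 and 9.88 FPKM to 44.2 and 32.9 FPKM, and Itga3, a laminin-binding integrin chain, from 18.7 and 14.7 FPKM to 40.6 and 32.7 FPKM. The one that fell was Gpc3, a glypican, from 25.0 and 27.6 FPKM to 12.4 and 12.5 FPKM. Dag1 (dystroglycan) and Itgb1, the partner of most laminin-binding integrin chains, did not pass, at 36.1 and 36.5 FPKM and at 124 and 125 FPKM (means of shLuci and shTex10).

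Genes for folding and export of collagen and laminin went both ways. Of 28 symbols, 22 were in the files, some being older and newer names of the same gene, and 18 were tested: 5 rose, 7 fell and 6 did not pass, at a median of -0.19 that turned to 0.02 after rescaling to the named sum. P4ha2, a catalytic subunit of collagen prolyl hydroxylase, rose from 11.4 and 10.6 FPKM to 30.2 and 25.8 FPKM, and its partner subunit P4hb fell from 231 and 230 FPKM to 140 and 140 FPKM. Fkbp10, a chaperone of collagens, rose from 12.1 and 9.95 FPKM to 29.5 and 25.4 FPKM, and Serpinh1 (HSP47), which binds the collagen triple helix, from 42.6 and 34.4 FPKM to 73.0 and 56.9 FPKM. P4hb also belongs to general protein folding, as do Hspa5 and Hsp90b1 of this list, which fell by 0.76 and 0.94 on the log2 scale.

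Matrix proteases and their inhibitors were higher more often than lower. Of 21 genes, 19 were tested, with 11 risen, 1 fallen (Timp1) and 7 not past the test, at a median log2 change of 0.34. Mmp9 reached the filter through shTex10 alone, and with a mean of at least 5 FPKM 6 were called higher and 1 lower. Serpine2 (protease nexin) rose from 20.8 and 21.5 FPKM to 68.4 and 82.4 FPKM, and Htra1, a secreted serine protease, from 10.3 and 9.94 FPKM to 28.6 and 28.8 FPKM. Serpine2 inhibits plasminogen activators, whose genes Plat and Plau are on the list and rose too, so the list holds members that act against each other.

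**Figure D4:**
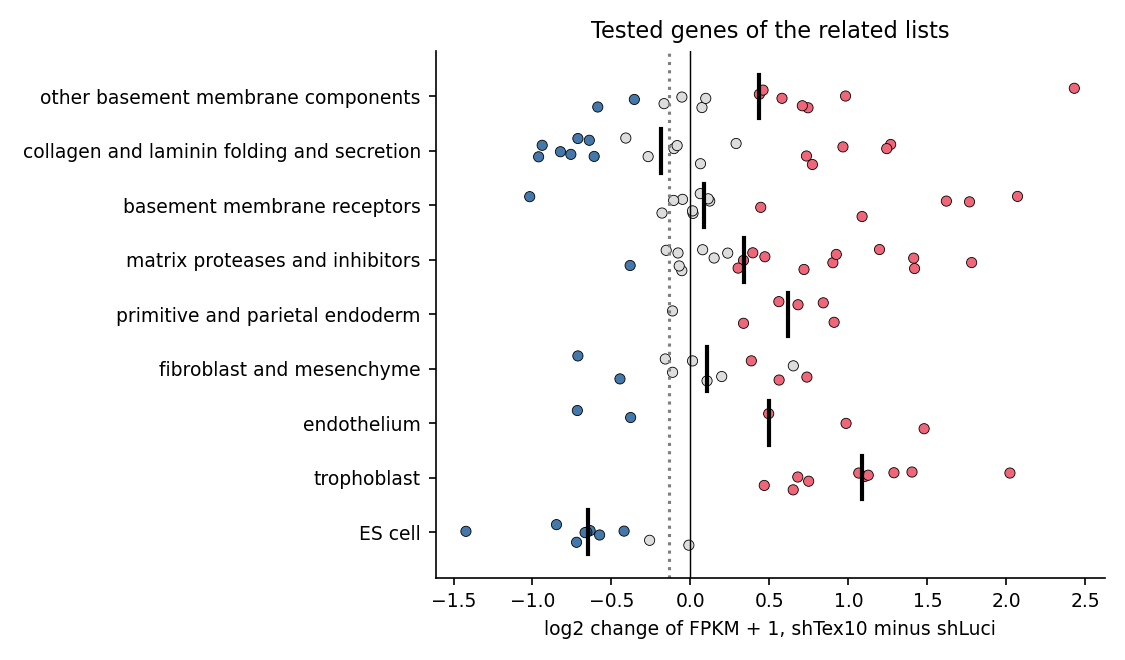
Each point is a tested gene of a list, placed by its log2 change of FPKM + 1, shTex10 minus shLuci; red passed the test as higher, blue as lower and grey did not pass. Black bars are list medians and the dotted line is the median of all tested genes; trophoblast markers lie to the right (median 1.09) and ES cell markers to the left (median -0.65).

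Other cell types that make basement membrane were read by their markers. Of 23 markers of primitive and parietal endoderm found in the files, 16 stayed under 1 FPKM in all 4 libraries. Gata4 lay between 0.532 and 0.865 FPKM, Sox17 between 0.0952 and 0.281 FPKM, and Ttr was listed at 0 in each library. Of the 6 tested, 5 rose and 0 fell (limma, also 0 at an unadjusted p under 0.05), among them Dab2 (1.19 and 1.38 to 3.04 and 3.54 FPKM) and Lrp2 (10.6 and 10.1 to 18.1 and 16.4 FPKM). Hnf4a (0.889 and 0.855 to 2.52 and 2.20 FPKM) reached the filter through shTex10 alone, so the filter helps fix this count, and with a mean of at least 5 FPKM 1 gene was called higher. Below the filter the list went both ways. Srgn measured 1.08 and 1.05 FPKM in shLuci and 0.840 and 0.749 FPKM in shTex10, whereas Apob went from 0.190 and 0.222 FPKM to 0.499 and 0.561 FPKM. The summed level of this list was 24.6 and 22.6 FPKM in shLuci and 37.1 and 36.2 FPKM in shTex10.

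Of 15 trophoblast markers 10 were tested, and these 10 rose and 0 fell (limma, also 0 at an unadjusted p under 0.05). Tfap2a and Plac1 reached the filter through shTex10 alone, which helps fix this count, and with a mean of at least 5 FPKM 5 were called higher and 0 lower. They summed to 268 and 277 FPKM in shLuci and 596 and 588 FPKM in shTex10, mostly Krt8 and Krt18, keratins of simple epithelia. Krt8 rose from 132 and 132 FPKM to 294 and 284 FPKM, Ascl2 from 1.57 and 1.17 FPKM to 9.94 and 7.43 FPKM, and Gata2 from 1.25 and 1.23 FPKM to 3.73 and 3.92 FPKM. Cdx2, below the filter, measured 0.332 and 0.460 FPKM in shLuci and 1.49 and 1.43 FPKM in shTex10. The trophoblast marker Elf5 stayed at or under 0.08 FPKM, and Prl3d1 at or under 0.19 FPKM. The part of such cells in the changes of Lama5, Sparc and the laminin chains was not tested.

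Fibroblast and mesenchymal genes were mixed. Of 18, 11 were tested, with 3 risen, 2 fallen and 6 not past the test, and the list summed to 491 and 465 FPKM in shLuci and 515 and 488 FPKM in shTex10. Tagln, an actin-binding protein gene, rose from 82.7 and 81.3 FPKM to 138 and 136 FPKM and Acta2 from 38.2 and 36.8 FPKM to 54.9 and 56.7 FPKM, whereas Col1a2 fell from 13.7 and 11.7 FPKM to 7.87 and 6.87 FPKM. The fibroblast markers Lum and Dcn stayed under 0.2 FPKM. Of 11 endothelial markers, 5 were tested, with 3 risen (Tek, Flt1 and Flt4) and 2 fallen (Egfl7 and Esam), of which Flt4 and Esam reached the filter through 1 group alone. Cdh5, which defines endothelium, stayed under 0.34 FPKM and Emcn was listed at 0. The list summed to 33.6 and 26.6 FPKM in shLuci and 33.3 and 28.2 FPKM in shTex10. Of 10 ES cell markers, 8 fell, 0 rose (limma, also 0 at an unadjusted p under 0.05) and 2 did not pass, led by Fgf4 (61.1 and 60.2 to 21.9 and 22.2 FPKM), Tdgf1 (392 and 389 to 214 and 219 FPKM) and Zfp42 (612 and 615 to 374 and 370 FPKM). Their sum was 5327 and 5743 FPKM in shLuci and 4292 and 4652 FPKM in shTex10.

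The genes with the pattern most like the mean of Lama1, Lamb1 and Lamc1 over the 4 libraries were Ptprk, Sema4a, Mrpl36, Zfp507 and Harbi1, at Euclidean distances between 0.018 and 0.0288 of log2(FPKM + 1) deviations. The averaged pattern, -0.59 and -0.67 in shTex10 against the shLuci mean, is that of none of the 3 laminin genes taken alone.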

How the data were processed

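RNA from 4 libraries, 2 shLuci and 2 shTex10, was read as 100-bp single ends after poly(A) selection, per the labels' protocols. Alignment to mm9 and quantification used TopHat2 2.0.10 with Bowtie2 2.1.0 and Cufflinks 2.1.1, per the submitters' processing notes. For annotation and strand settings, nothing is given in the sources used here. The authors deposited FPKM, in a separate file for each library. Of 30640 rows, 23311 carry a gene name, and rows sharing a name were summed. Changes were tested with limma 3.58.1 in R 4.3.3 on log2(FPKM + 1), at a mean FPKM of at least 1, with a variance trend, no block and Benjamini-Hochberg adjustment. The fit was tested on simulated data. FPKM holds no depth, so no counting intervals are given, and a few abundant rows can shift all other values.

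The 10 genes, the lists, the tests and the alternatives were chosen with earlier results of these data known. Named list genes are the 3 with the smallest p in each list, except that some items are not reported here. Itga3, Itgb1, Dag1, Ddr1, Col18a1, Tinagl1, Fbln1, Smoc1, Serpinh1, Hspa5, Hsp90b1, Timp1, Plat, Plau, Mmp9, Frem2, Tfap2a, Plac1, Egfl7, Esam, Pou5f1, Nanog, Krt18, Srgn, Apob and the markers given as scarce were named after their values were seen. Alternatives tried were 4 scalings, a block on the replicate number, pseudocounts of 0.1 or 0.5, a minimum mean of 5 or none, eBayes without trend or robust, only the highest row of a name, and leaving out each library. Promoters are from RefSeq (GRCm38.p6), and transcript lengths and GC content from GENCODE M21.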

Additional observations from a re-analysis of the deposited data

How the results depend on the processing

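Lama1 kept its call under all 16 alternatives. Lama5 and Sparc kept theirs except with the same sum over every row, where 892 genes were called in place of 6129 (73.4% of them higher), 1 of the 10 genes (Lama1) was called lower and 0 higher (limma, 2 at an unadjusted p under 0.05). There the change of Lama5 was 0.98 and that of Sparc 0.93 (limma, Benjamini-Hochberg adjusted p = 0.193 and 0.233), close to the values as deposited. Their SE there was 0.44 and 0.43, beside 0.19 and 0.09 as deposited. The sum over every row that this scaling divides by was 1403759 and 2224872 FPKM in shLuci and 1798452 and 1722506 FPKM in shTex10. Rescaling to the named sum left 1 gene called lower, Lama1, and reversed Nid1 (0.085, and 0.087 under quantile normalization). Leaving out 1 library left a lone sample in its group. The SE of the 10 genes then lay between 0.164 and 0.178, close to 1 value for all. A call there thus reflects little of a gene's own scatter. With 1 library left out, Col4a1 moved between -0.022 (without shTex10 replicate 1) and 0.27. The Lama1 share difference then ran from -23.9 to -18.6 percentage points, and that of Col4a1 from -4.83 to -0.475. The share of the 10 genes in all rows differed by 0.00504 percentage points, in place of 0.0329 of named rows, and the groups then overlapped. Without 1 library the share of the 10 genes in named rows differed by 0.0268 to 0.0390 percentage points. With the same sum over every row, 4 trophoblast markers, 4 proteases and inhibitors and 3 receptors were called higher. So were 2 endoderm markers, 2 endothelial markers, 1 other basement membrane component and 1 folding gene, and 1 ES cell marker was called lower. With quantile normalization 4 ES cell markers were called lower in place of 8. The causes were not tested. Same-numbered libraries deviated together across genes (r = 0.33, 11883 genes, which are not independent). With only 2 pairs they are treated as sharing a number alone. With the replicate number as a block, 8919 genes were called, among the 10 genes 5 higher (Lama5, Lamb1, Col4a2, Sparc and Hspg2) and 4 lower (Lama1, Lamc1, Nid1 and Nid2). The block left the differences of the shares as they were.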

Other observations

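The difference between the libraries numbered 1 and 2 followed the GC content of transcripts across all tested genes, in both groups. Of the tested genes, 10665 (89.8%) matched a GENCODE coding transcript by symbol, and they were divided into 5 equal bins of GC content. In the bin of lowest GC (33.1% to 44.4%) the median log2 difference, replicate 1 minus replicate 2, was -0.15 in shLuci and -0.16 in shTex10. In the bin of highest GC (56.1% to 72.8%) it was 0.21 in shLuci and 0.21 in shTex10, and it grew from bin to bin between them. The median log2 change between the groups, in contrast, lay between -0.16 and -0.11 in all 5 bins. Lama5, Col4a1, Col4a2 and Hspg2 belong to the bin of highest GC.

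Col1a1 measured 18.8 and 12.8 FPKM in shLuci and 30.1 and 20.8 FPKM in shTex10 (log2 change 0.65, limma, Benjamini-Hochberg adjusted p = 0.0607), and Col1a2, its partner in the collagen I trimer, fell. Of the collagen V genes, Col5a2 rose from 2.73 and 2.63 FPKM to 3.95 and 3.67 FPKM (log2 change 0.39, adjusted p = 0.0165) and Col5a1 measured 5.60 and 4.55 FPKM in shLuci and 5.86 and 4.44 FPKM in shTex10 (adjusted p = 0.947). Col3a1 was below the filter, and differences between these genes were not tested. Fn1 (fibronectin), a matrix protein outside the basement membrane proper, fell from 155 and 148 FPKM to 118 and 104 FPKM (log2 change -0.45, adjusted p = 0.0133). These genes were named after their values were seen.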
